A study of Homo sapiens with 10 samples.

Results

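The proteasome is the large protease that degrades ubiquitin-tagged proteins in the cytosol and nucleus. Its barrel-shaped core particle is built from alpha subunits (PSMA genes), which form the outer rings and gate the pore, and beta subunits (PSMB genes), which form the inner rings and carry the active sites. A regulatory particle with a ring of ATPases (PSMC genes) and a set of other subunits (PSMD genes) binds, unfolds and deubiquitinates substrates. Other caps (PSME genes) open the core without ATP, PSMF1 encodes the inhibitor PI31, and dedicated chaperones (PSMG genes for the core, PSMD5, PSMD9 and PSMD10 for the base) guide assembly. Interferons switch on 3 alternative catalytic subunits, PSMB8, PSMB9 and PSMB10, which replace the constitutive ones in the immunoproteasome and favour peptides for MHC class I.

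These genes were taken as all rows of the deposited table whose symbol starts with PSM, a letter from A to G and a digit, which gave 50 of 16734 genes. Of these, 48 encode proteasome subunits, activators, the inhibitor or assembly factors. The other 2 matched by symbol only: PSMC3IP encodes a meiotic recombination factor, and PSME3IP1 a protein that binds the PSME3 activator. RNA came from MIA PaCa-2, an established human pancreatic ductal adenocarcinoma line, in DMEM with 10% fetal bovine serum. In 5 libraries the cells had been kept for 24 h with 10 µM hydroxyprogesterone caproate (HPC), a synthetic progestin ester, and in 5 libraries for 24 h with the same volume of its solvent, DMSO. The line stands for 1 tumour, and neither group carried any other agent. The libraries of a group are labelled as biological replicates without a date, batch or culture, and p-values therefore rest on the spread among these libraries.

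Values are FPKM, sequenced fragments relative to gene length and library size, and changes are log2 fold changes of FPKM + 0.1, HPC over DMSO, from limma with Benjamini-Hochberg adjustment over 9150 genes. A gene rose or fell where its adjusted p was under 0.05. FPKM gives shares of a library, so amounts per cell were not measured, and fewer transcripts per cell cannot be told apart from more of all others. Whole reads recovered from the FPKM values gave library totals of 65886687 to 74516766 in HPC and 71648782 to 82273103 in DMSO. The 50 genes held 0.585% ± 0.00925 of the reads in HPC and 0.577% ± 0.00940 in DMSO (SD, n = 5 each). Keratin 18 (KRT18) at 150 FPKM in HPC and 114 in DMSO and vimentin (VIM) at 333 and 695 FPKM in the same order marked the carcinoma line, as did keratin 19 (KRT19) at 10.1 FPKM in HPC and 24.0 in DMSO, while the epithelial genes CDH1 and EPCAM averaged at most 0.00247 FPKM and KRT7 at most 0.226 FPKM in either group.

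Proteasome transcripts shifted in small steps and in both directions. Of the 45 genes that passed the filter on low values, which had at least 1 FPKM in all 10 libraries, 20 rose, 14 fell and 11 did not pass the test. The 5 genes below the filter were PSMA8, PSMB8, PSMB9, PSMB11 and PSMC3IP. Most genes of the ATPase ring (5 of 6) and of the lid (6 of 8) rose, most of all the ATPase gene PSMC4, while in the core more genes fell than rose. The interferon-type genes PSMB8, PSMB9, PSMB10, PSME1 and PSME2 were all lower in HPC. The 2 chaperones that pair to start core assembly, PSMG1 and PSMG2, moved in opposite directions. The call rate of 75.6% stood beside 87.7% of all tested genes (42.9% higher and 44.8% lower), so the proteasome genes were not called more often than the rest. The median absolute log2 change was 0.21 for the 45 genes and 0.43 for all tested genes, and the median signed change was 0.05 and -0.01. With a minimum of 1.5-fold added, 1 gene rose (PSMC4) and 4 fell (PSME1, PSMA2, PSMB10 and PSME2), which was 11.1% of the 45, against 37.2% of all tested genes (16.9% higher and 20.3% lower). The 5 HPC and 5 DMSO values did not overlap for 30 genes (66.7%), beside 79.6% of all tested genes.

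The split between higher and lower calls depended on the scaling. Transcripts of mitochondrial genes took 14.8% ± 0.717 of the FPKM in HPC and 22.6% ± 0.704 in DMSO (SD, n = 5 each). With libraries scaled to the same sum over all other genes, the median change of all tested genes moved to -0.18, and 9 of the 45 proteasome genes were higher and 25 lower, with a median of -0.11, beside 32.3% of all tested genes higher and 54.8% lower. The 25 were the 14 that fell in the reported fit, PSMB4, and all of the genes that had not passed except PSMD9. The 9 that stayed higher were PSMC1, PSMC3, PSMC4, PSMD7, PSMD8, PSMD14, PSME4, PSMF1 and PSMG1. Scaling to the sum of all FPKM gave 17 higher and 17 lower, beside 40.7% and 46.3% of all tested genes.

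**Figure D1:**
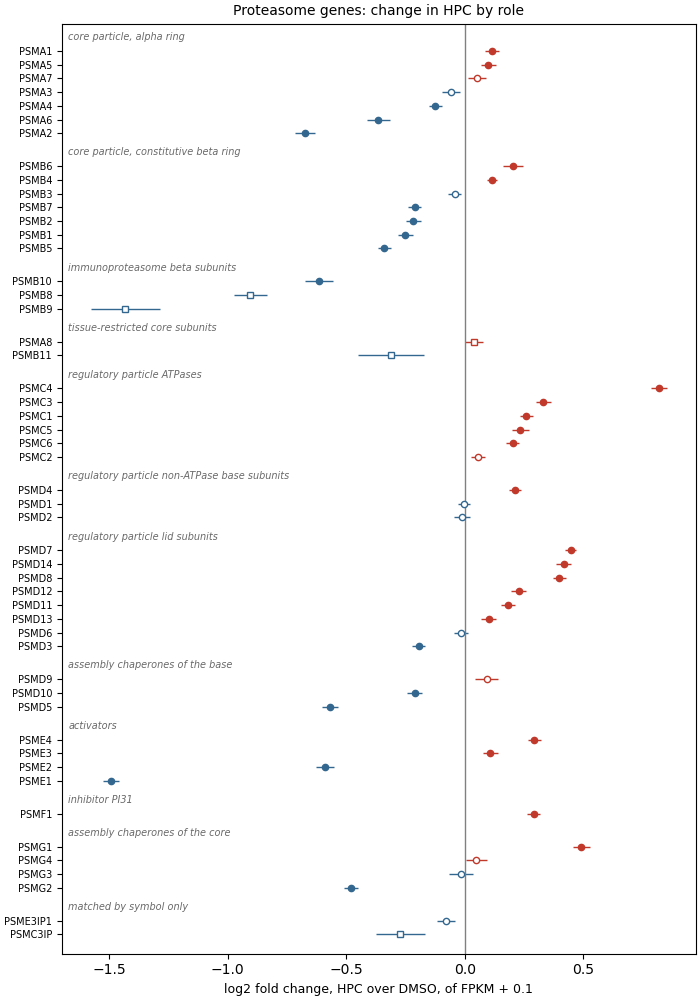
Log2 fold change of FPKM + 0.1, HPC over DMSO, for the 50 genes, grouped by role (rows), with standard errors as bars. Filled circles passed the test, open circles did not, and open squares mark genes below the filter, shown with their value in the fit with no filter. PSMC4 lies farthest to the right at 0.82, and PSME1 and PSMB9 farthest to the left at -1.49 and -1.43.

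The alpha ring and the constitutive beta ring together held 14 genes, with a median log2 change of -0.09. Of these, 4 rose, 7 fell and 3 did not pass, beside 42.9% higher and 44.8% lower of all tested genes. In the alpha ring, PSMA2 fell most. Its values were 13.2, 12.1, 13.1, 11.4 and 13.1 FPKM in HPC libraries 1 to 5, against 21.0, 19.3, 20.4, 19.8 and 19.7 FPKM in DMSO libraries 1 to 5. All HPC values lay below all DMSO values (log2 fold change -0.67, SE 0.04, limma adjusted p = 3.84e-09). PSMA6 also fell, to 8.51 ± 0.682 FPKM in HPC, against 11.0 ± 0.302 in DMSO (SD, n = 5 each, log2 fold change -0.36), and PSMA4 fell by 0.13 on the log2 scale. PSMA1 was the highest of the ring in its change. It had 14.2, 15.1, 15.1, 13.8 and 14.7 FPKM in HPC and 13.8, 13.4, 13.7, 13.2 and 13.3 FPKM in DMSO. The lowest HPC value and the highest DMSO value were equal after rounding, without overlap, and the rise of 0.11 (SE 0.03, limma adjusted p = 0.00274) turned to -0.05 with mitochondrial genes left out of the scaling. PSMA5 rose by 0.10 but overlapped between the groups and turned to -0.07 under that scaling. PSMA3 (-0.06) and PSMA7 (0.05) did not pass. In GENCODE 29, readthrough loci on the same strand share 53.2% of the PSMA1, 52.5% of the PSMA2 and 81% of the PSMA6 principal transcript, so reads of these genes may have been split or dropped in counting.

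Among the beta subunits without an active site, PSMB1 fell by 0.25 and PSMB2 by 0.22 on the log2 scale, PSMB3 did not pass (-0.04), and PSMB4 rose by 0.11, a value that turned to -0.05 with mitochondrial genes left out of the scaling. The 3 constitutive catalytic genes did not move together. PSMB5, which encodes the chymotrypsin-like site, had 17.8, 18.2, 18.9, 17.8 and 18.5 FPKM in HPC and 23.3, 22.8, 24.0, 22.2 and 23.2 FPKM in DMSO. Every HPC library lay below every DMSO library, and PSMB5 had the largest fall of the constitutive beta genes (log2 fold change -0.34, SE 0.03, limma adjusted p = 3.65e-08). PSMB7, the trypsin-like site, had 36.3, 36.4, 38.6, 36.0 and 38.5 FPKM in HPC and 44.4, 43.5, 42.2, 42.8 and 42.4 FPKM in DMSO, again without overlap (log2 fold change -0.21, SE 0.03, adjusted p = 5.64e-06). PSMB6, the caspase-like site, went the other way, with 32.7, 32.7, 32.5, 27.8 and 32.0 FPKM in HPC and 28.0, 27.4, 27.2, 27.4 and 26.7 FPKM in DMSO. HPC library 4 lay inside the DMSO range while the other HPC libraries lay above it. PSMB6 rose by 0.20 (SE 0.04, adjusted p = 0.000417), and by 0.25 without HPC library 4, but by 0.04 with mitochondrial genes left out of the scaling, where it did not pass.

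The interferon-inducible catalytic genes were all lower in HPC. In GENCODE 29 on GRCh38, PSMB8 (chr6:32840717-32844703, minus strand) and PSMB9 (chr6:32844136-32859585, plus strand) lie in the MHC region. Their annotated spans overlap at 1 end, on opposite strands. PSMB10 lies at chr16:67934502-67937087. PSMB10, which replaces PSMB7, was the only one above the filter. It had 2.38, 2.30, 2.15, 2.26 and 2.22 FPKM in HPC and 3.40, 4.13, 3.56, 3.22 and 3.33 FPKM in DMSO. The groups were well apart, and PSMB10 fell (log2 fold change -0.62, SE 0.06, limma adjusted p = 3.05e-07). A readthrough locus on the same strand shares 45.3% of its principal transcript. PSMB8, which replaces PSMB5, had 0.309, 0.334, 0.315, 0.387 and 0.365 FPKM in HPC and 0.813, 0.766, 0.654, 0.665 and 0.741 FPKM in DMSO, from 196 to 235 reads a library in HPC and 438 to 556 in DMSO. PSMB9, which replaces PSMB6, had 0.382, 0.300, 0.252, 0.386 and 0.470 FPKM in HPC and 1.07, 1.50, 1.16, 0.938 and 1.00 FPKM in DMSO, from 106 to 175 and 380 to 623 reads in the same order. Neither gene overlapped between the groups. In the fit with no filter, in which 67.4% of 16734 genes were called (31.2% higher and 36.2% lower), both were lower, PSMB8 by a log2 fold change of -0.90 (SE 0.07, limma adjusted p = 4.87e-07) and PSMB9 by -1.43 (SE 0.15, limma adjusted p = 4.63e-06).

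Each inducible gene was set against the constitutive gene whose place it takes. PSMB9 stood at 1.14% ± 0.298 of the PSMB6 FPKM in HPC and at 4.15% ± 0.810 in DMSO (SD, n = 5 each), a log2 difference of -1.88. PSMB8 stood at 1.88% ± 0.203 of PSMB5 in HPC and at 3.16% ± 0.301 in DMSO, a log2 difference of -0.75. PSMB10 stood at 6.10% ± 0.411 of PSMB7 in HPC and at 8.20% ± 0.800 in DMSO, a log2 difference of -0.42. The ratio was lower in 5 of 5 HPC libraries than in any DMSO library for all 3 pairs. Each pair gave an exact two-sided permutation p of 0.00794, also after adjustment over the 3 pairs, which is the smallest value that 5 against 5 libraries allow. A ratio within a library does not depend on its scaling. PSMB5 and PSMB7 were themselves lower in HPC, and their 2 ratios fell by less than PSMB8 and PSMB10 alone. PSMB6 was higher, and its ratio fell by more than PSMB9 alone.

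The deposited FPKM does not compare levels between genes well. The gene lengths recovered from the values lay within 1% of the summed length of all annotated transcripts for 76.2% of genes, and within 1% of the merged exons for 6.26%, so a gene with many annotated transcripts reads low. Levels between genes were therefore taken as reads per kilobase of the principal transcript, scaled to library size (principal-transcript level). On that scale PSMB8 was at 3.76% of PSMB5 in HPC and 6.32% in DMSO, PSMB9 at 1.98% of PSMB6 in HPC and 7.24% in DMSO, and PSMB10 at 4.81% of PSMB7 in HPC and 6.47% in DMSO. The constitutive core genes spanned 30.0 (PSMA4) to 251.7 (PSMB4) in HPC and 29.1 (PSMA5) to 232 (PSMB4) in DMSO on the same scale, with medians of 118 and 115. PSMA4 and PSMA5 have principal transcripts of 4411 and 3729 bases in the annotation used here, against 964 bases for PSMB4, and which transcript the cells used was not measured.

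**Figure D2:**
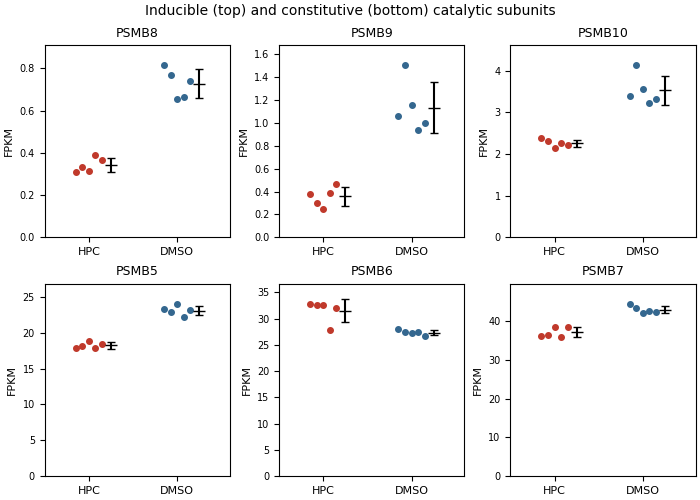
FPKM in each HPC and DMSO library (points, 5 a group) with mean and SD (black) for the inducible catalytic genes in the top row and the constitutive genes they replace in the bottom row. The inducible genes and PSMB5 and PSMB7 were lower in every HPC library, and PSMB6 was higher in all but HPC library 4, at 27.8 FPKM.

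The remaining core genes belong to other tissues. PSMA8, the testis alpha subunit, was listed at 0 in 9 libraries and at 0.0142 FPKM in HPC library 2. PSMB11, the thymus beta subunit, was at 0 in all HPC libraries and at 0 to 0.0808 FPKM in DMSO, at most 7 reads. Markers of leukocytes, which carry much immunoproteasome, did not move together. PTPRC, the pan-leukocyte marker, was at 0 in all DMSO libraries and at most 0.00291 FPKM in HPC. The summed level of the 3 leukocyte genes used ranged from 8.42 to 11.0 FPKM in HPC and from 2.94 to 3.80 in DMSO, nearly all of it CD68, a lysosomal gene that other cells express too. CD14 was lower in HPC, at 0.0739 ± 0.0441 FPKM, against 0.487 ± 0.0663 in DMSO (SD, n = 5 each). Fibroblast and endothelial genes summed to 0.0415 to 0.0700 FPKM in HPC and to 0.255 to 0.356 in DMSO, lower in HPC without overlap. Any part of such cells in the immunoproteasome values was not tested.

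Of the 6 genes of the ATPase ring, 5 rose and none fell, with a median log2 change of 0.25. Over all tested genes, 42.9% rose and 44.8% fell. With mitochondrial genes left out of the scaling, 3 were higher and 1 (PSMC2) lower, beside 32.3% and 54.8% of all tested genes. PSMC4 had 21.6, 21.8, 22.0, 19.7 and 20.6 FPKM in HPC and 11.5, 12.3, 12.3, 12.0 and 11.6 FPKM in DMSO. Each HPC library exceeded every DMSO library by a wide margin, and the rise was 1.76-fold (log2 fold change 0.82, SE 0.03, limma adjusted p = 6.38e-11). PSMC3 followed at 8.75 ± 0.360 FPKM in HPC and 6.93 ± 0.155 in DMSO (SD, n = 5 each, log2 fold change 0.33), then PSMC1 (0.26), PSMC5 (0.23) and PSMC6 (0.20), all without overlap. PSMC2 had 16.2, 16.3, 16.3, 16.4 and 17.3 FPKM in HPC and 15.9, 15.2, 15.5, 16.0 and 16.8 FPKM in DMSO. The groups overlapped and PSMC2 did not pass (log2 fold change 0.06, SE 0.03, limma adjusted p = 0.088). It passed as higher (0.07) under median ratio scaling and as lower (-0.11) with mitochondrial genes left out of the scaling. An opposite-strand gene, NRDE2, shares 82.1% of the PSMC1 principal transcript and FTSJ3 shares 27.2% of that of PSMC5. Whether counting used strand is not given in the sources used here, so reads of such pairs cannot be told apart.

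The base holds 3 further subunits. The scaffolds PSMD1 and PSMD2, which hold receptors for ubiquitin and shuttle proteins, did not pass, at -0.0033 and -0.01, but passed as lower (-0.17 and -0.18) with mitochondrial genes left out of the scaling. Under median ratio scaling both were slightly above 0, as was PSMD1 under quantile normalization, where PSMD2 passed as lower (-0.08). PSMD1 had 10.5, 10.2, 10.5, 10.6 and 10.7 FPKM in HPC and 10.6, 10.5, 10.5, 10.8 and 10.2 FPKM in DMSO. PSMD2 had 20.1, 20.4, 20.7, 18.5 and 19.7 FPKM in HPC and 20.2, 19.0, 20.7, 20.2 and 20.1 FPKM in DMSO. Both genes overlapped over most of their range. The ubiquitin receptor PSMD4 rose, with 19.8, 20.3, 19.9, 20.5 and 19.3 FPKM in HPC and 17.8, 17.1, 16.8, 16.8 and 17.6 FPKM in DMSO. Its groups were apart (log2 fold change 0.21, SE 0.03, limma adjusted p = 3.76e-06), but with mitochondrial genes left out of the scaling it was at 0.05 and did not pass.

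In the lid, 6 of 8 genes rose, 1 fell and 1 did not pass, with a median log2 change of 0.20. All tested genes stood at 42.9% higher and 44.8% lower. Under the scaling without mitochondrial genes 3 were higher and 2 lower, beside 32.3% and 54.8% of all tested genes. The largest rises were those of PSMD7, PSMD14 and PSMD8. PSMD14 is the deubiquitinase that removes ubiquitin chains from substrates as they enter, and PSMD7 is its structural partner. PSMD7 had 29.8, 30.3, 28.6, 29.3 and 28.9 FPKM in HPC and 22.0, 21.9, 20.7, 21.4 and 21.7 FPKM in DMSO. The groups were far apart (log2 fold change 0.45, SE 0.02, limma adjusted p = 1.05e-09). PSMD14 rose by 0.42 to 17.1 ± 0.359 FPKM in HPC, against 12.8 ± 0.557 in DMSO, and PSMD8 by 0.40 to 22.3 ± 0.363, against 16.9 ± 0.628 (SD, n = 5 each). PSMD12 (0.23) and PSMD11 (0.18) rose less and did not pass with mitochondrial genes left out of the scaling, and PSMD13 rose by 0.10 with overlapping groups and was at -0.06 there. PSMD6 did not pass (-0.02). PSMD3 alone fell in the lid, where PSMD6 was lower too (-0.18) with mitochondrial genes left out of the scaling. PSMD3 had 21.8, 21.8, 23.6, 22.2 and 21.8 FPKM in HPC and 26.0, 25.1, 25.9, 24.9 and 25.5 FPKM in DMSO. Its groups were apart (log2 fold change -0.20, SE 0.03, limma adjusted p = 1.22e-05). A noncoding transcript on the opposite strand shares 50.4% of the PSMD7 principal transcript.

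Of the 3 PSMD genes for chaperones of the base, 2 fell, beside 44.8% of all tested genes. PSMD9 did not pass, although it passed as higher under quantile normalization. PSMD5 had 10.8, 11.5, 11.3, 12.0 and 12.2 FPKM in HPC and 17.0, 17.2, 16.9, 17.4 and 17.6 FPKM in DMSO. It fell without overlap, by the largest step of the PSMC and PSMD genes downward (log2 fold change -0.57, SE 0.03, limma adjusted p = 1.76e-09). PSMD10, also known as gankyrin, fell by 0.21 to 11.4 ± 0.509 FPKM in HPC, against 13.2 ± 0.142 in DMSO (SD, n = 5 each). PSMD9 had 2.13, 2.32, 2.04, 1.91 and 2.04 FPKM in HPC and 1.95, 1.99, 2.02, 1.92 and 1.87 FPKM in DMSO, overlapped and did not pass (log2 fold change 0.09, SE 0.05, limma adjusted p = 0.0875). Readthrough and neighbouring loci share part of the PSMD9 transcript.

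Among the activators, the interferon-inducible pair and the nuclear ones differed in direction. PSME1 (chr14:24136158-24138967, plus strand) and PSME2 (chr14:24143362-24147570, minus strand) are close neighbours and encode the heptameric cap PA28 alpha-beta. PSME1 had the largest fall of all tested proteasome genes, with 5.09, 5.13, 4.94, 5.54 and 5.10 FPKM in HPC and 15.0, 14.6, 15.1, 14.5 and 14.3 FPKM in DMSO. HPC libraries thus lay far below DMSO libraries, 2.81-fold on the fitted scale (log2 fold change -1.49, SE 0.03, limma adjusted p = 8.94e-14). PSME2 had 3.31, 3.52, 3.42, 3.37 and 3.40 FPKM in HPC and 5.27, 5.53, 5.02, 4.84 and 5.26 FPKM in DMSO. It also fell without overlap, by a smaller step (log2 fold change -0.59, SE 0.04, limma adjusted p = 3.44e-09). By principal-transcript level, PSME1 and PSME2 were at 44.6 and 36.5 in HPC and at 127 and 55.6 in DMSO, so the levels of the 2 partners were closer in HPC. RNF31, on the opposite strand, shares 12% of the PSME2 transcript.

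PSME4, the nuclear activator PA200, had 7.73, 7.77, 7.92, 7.56 and 7.78 FPKM in HPC and 6.50, 6.09, 6.42, 6.30 and 6.23 FPKM in DMSO. It rose without overlap (log2 fold change 0.29, SE 0.03, limma adjusted p = 1.75e-07). PSME3, the nuclear PA28 gamma, had 8.78, 8.82, 9.15, 8.36 and 8.93 FPKM in HPC and 8.42, 7.82, 8.50, 8.04 and 8.10 FPKM in DMSO. Its groups overlapped, and the rise of 0.11 (SE 0.03, limma adjusted p = 0.00686) turned to -0.06 with mitochondrial genes left out of the scaling. PSMF1, which encodes PI31, an inhibitor of the core in vitro, had 6.12, 6.34, 6.27, 6.09 and 6.05 FPKM in HPC and 5.19, 4.89, 5.14, 4.88 and 5.07 FPKM in DMSO. It rose without overlap (log2 fold change 0.29, SE 0.03, limma adjusted p = 4.23e-07).

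The core assembly chaperones act as 2 pairs, PSMG1 with PSMG2 and PSMG3 with PSMG4. PSMG1 had 12.5, 12.8, 13.2, 13.5 and 13.7 FPKM in HPC and 9.97, 9.08, 9.11, 9.55 and 8.87 FPKM in DMSO. It rose without overlap (log2 fold change 0.49, SE 0.04, limma adjusted p = 2.01e-08). PSMG2 had 7.41, 7.59, 7.54, 7.95 and 7.75 FPKM in HPC and 11.0, 10.3, 10.5, 10.9 and 11.0 FPKM in DMSO. It fell without overlap (log2 fold change -0.48, SE 0.03, limma adjusted p = 2.52e-09). By principal-transcript level, PSMG1 and PSMG2 were at 33.5 and 30.3 in HPC and at 23.8 and 42.4 in DMSO, so PSMG2 was the lower partner in HPC and the higher one in DMSO. CEP76, on the opposite strand, shares 17.3% of the PSMG2 transcript.

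The other pair did not pass, although PSMG3 (-0.18) and PSMG4 (-0.11) were called lower with mitochondrial genes left out of the scaling and PSMG4 (0.13) higher under quantile normalization. PSMG3 had 8.52, 8.72, 9.63, 8.41 and 9.14 FPKM in HPC and 10.0, 9.05, 8.92, 8.78 and 8.18 FPKM in DMSO (log2 fold change -0.02, limma adjusted p = 0.777). PSMG4 had 1.61, 1.55, 1.59, 1.67 and 1.68 FPKM in HPC and 1.55, 1.58, 1.59, 1.67 and 1.43 FPKM in DMSO (log2 fold change 0.05, limma adjusted p = 0.31). Both overlapped. Of the genes matched by symbol only, PSMC3IP had 0.536, 0.464, 0.442, 0.641 and 0.506 FPKM in HPC and 0.730, 0.695, 0.681, 0.603 and 0.518 FPKM in DMSO, with overlap, and was lower in the fit with no filter (log2 fold change -0.27, limma adjusted p = 0.0348). MLX, on the opposite strand, shares 54.4% of its transcript. PSME3IP1 did not pass (-0.08).

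**Figure D3:**
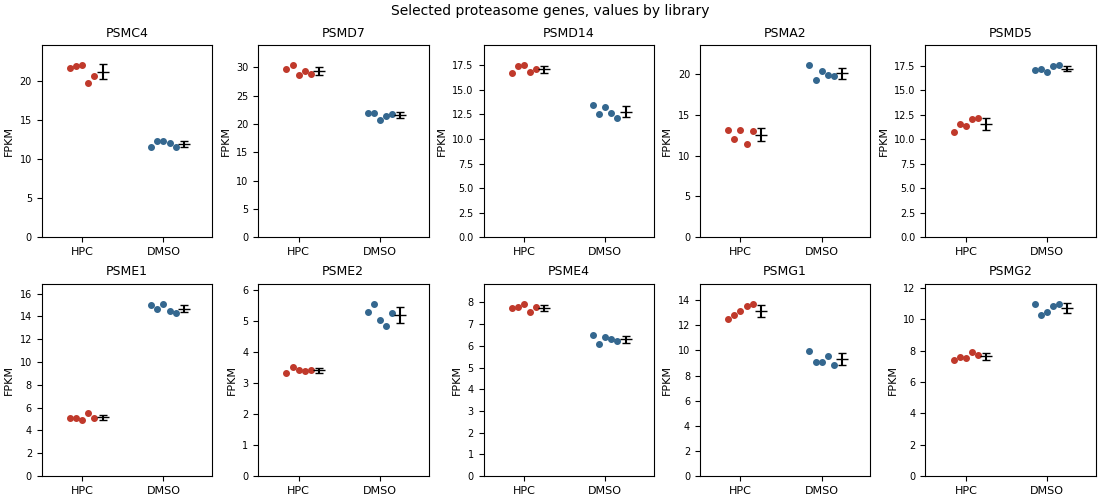
FPKM in each HPC and DMSO library (points, 5 a group) with mean and SD (black) for 10 genes with larger changes. PSMC4, PSMD7, PSMD14, PSME4 and PSMG1 were higher and PSMA2, PSMD5, PSME1, PSME2 and PSMG2 lower in every HPC library than in any DMSO library.

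Promoter sequence was read for 44 of the 50 genes, as the 250 bases before each RefSeq start on GRCh38.p14. A gene with several starts was counted where any of its windows held a match. On both strands, 3 response elements and the CCAAT box were searched: the interferon-stimulated response element core (GAAA, any 2 bases, GAAA), the antioxidant response element core TGACNNNGC, bound by NRF1 and NRF2 with small MAF proteins, and the C/EBP-ATF core TGATGNAA. The interferon element core was found in 5 genes (11.4%, beside 3.01% of tested genes and 3.02% of all windows): PSMB10 and PSME2, PSMA4, which fell, PSMB4, which rose, and PSMG4, which did not pass. The same 10 letters, in capitals, lie close to the start of PSMB10, PSME2 and PSMG4, shown here 5′ to 3′ on each gene's strand and ending at the base before the start. The windows are chr16:67936851-67936950 (minus strand), chr14:24146611-24146810 (minus strand) and chr6:3258847-3258946 (plus strand). In PSME2 the capitals also mark a TGACNNNGC match.
PSMB10: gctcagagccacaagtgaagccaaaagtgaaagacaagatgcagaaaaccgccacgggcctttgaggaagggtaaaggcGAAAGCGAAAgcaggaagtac
PSME2: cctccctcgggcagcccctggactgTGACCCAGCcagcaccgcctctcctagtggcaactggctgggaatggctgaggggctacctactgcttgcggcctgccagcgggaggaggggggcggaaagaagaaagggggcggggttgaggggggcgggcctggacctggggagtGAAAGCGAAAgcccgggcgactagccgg
PSMG4: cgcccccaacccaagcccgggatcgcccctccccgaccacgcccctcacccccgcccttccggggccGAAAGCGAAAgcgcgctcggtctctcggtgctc

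PSMB9 has no such match in its own window, but TAP1, which encodes a subunit of the peptide transporter of the endoplasmic reticulum, starts 488 bases away on the opposite strand. The TAP1 window holds 2 overlapping matches on its other strand, 119 to 134 bases before the TAP1 start and 354 to 369 bases before the PSMB9 start. They are capitals in the 150 bases at chr6:32853805-32853954 (minus strand), shown because the stretch lies between 2 genes that moved in opposite directions.
TAP1: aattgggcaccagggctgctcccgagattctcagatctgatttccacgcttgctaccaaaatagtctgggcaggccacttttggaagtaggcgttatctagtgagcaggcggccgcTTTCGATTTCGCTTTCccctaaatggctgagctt
TAP1 had 6.64, 6.73, 6.28, 6.02 and 6.14 FPKM in HPC and 3.64, 4.03, 3.89, 3.88 and 3.83 FPKM in DMSO. TAP1 thus rose without overlap (log2 fold change 0.71, SE 0.04, limma adjusted p = 8.38e-10), while PSMB9 was lower in HPC. Some annotated PSMB9 transcripts span TAP1, and how reads in the shared stretch were counted is not given in the sources used here.

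TGACNNNGC was found in 13 of the 44 genes (29.5%, beside 15.8% of tested genes and 10.9% of all windows). Of the 12 that were tested, 4 rose (PSMC5, PSMD12, PSME4 and PSMG1), 6 fell (PSMA4, PSMD3, PSMD5, PSME1, PSME2 and PSMG2) and 2 did not pass (PSMB3 and PSMD9), and PSMB9 was below the filter. Over all tested genes, 42.9% rose and 44.8% fell. The opposed pair PSMG1 and PSMG2 both hold TGACNNNGC in a window. PSMG2 has a further start, whose window at chr18:12702792-12703041 holds no match, and PSMA4 and PSMC5 also have windows without it. Which start the cells used was not measured. Shown are chr21:39183452-39183651 (minus strand) for PSMG1 and chr18:12658638-12658737 (plus strand) for PSMG2, with the match in capitals.
PSMG1: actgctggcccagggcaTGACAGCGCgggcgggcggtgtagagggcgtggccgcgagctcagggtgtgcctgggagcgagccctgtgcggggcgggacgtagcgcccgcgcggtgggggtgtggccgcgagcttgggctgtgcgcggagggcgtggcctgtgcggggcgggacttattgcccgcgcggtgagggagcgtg
PSMG2: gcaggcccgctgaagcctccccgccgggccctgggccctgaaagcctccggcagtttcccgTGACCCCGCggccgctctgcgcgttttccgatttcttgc
TGATGNAA was in 0 of the 44 genes, beside 2% of tested genes and 3.14% of all windows, and CCAAT in 21 (47.7%), beside 41.6% and 32%. These are matches of letters, not measured binding.

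Of 8 tested genes for proteins of the same complexes without a PSM symbol, 4 rose, 2 fell and 2 did not pass. Shares over all tested genes were 42.9% higher and 44.8% lower. ADRM1, a ubiquitin receptor of the base, rose by 1.02 on the log2 scale to 29.2 ± 1.33 FPKM in HPC, against 14.3 ± 0.517 in DMSO (SD, n = 5 each), more than any PSMC or PSMD gene. ECPAS, a scaffold that binds the proteasome under stress, rose by 0.65, the thioredoxin-like TXNL1 by 0.25, and the deubiquitinase USP14 by 0.12, a value that turned to -0.05 with mitochondrial genes left out of the scaling. The small lid subunit SEM1 fell by 0.44 and the ubiquitin ligase UBE3C by 0.24 on the log2 scale. The core maturation protein POMP (0.04) and the deubiquitinase UCHL5 (0.02) did not pass, and PAAF1, a further chaperone of the base, was below the filter and higher in the fit with no filter (0.19, limma adjusted p = 0.0175). With mitochondrial genes left out of the scaling, 3 of the 8 were higher and 4 lower, beside 32.3% and 54.8% of all tested genes.

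Proteasome subunit genes are classic targets of NRF1 (NFE2L1), a factor of the endoplasmic reticulum that is cleaved and released when the proteasome is impaired. NFE2L1 rose by 1.69 on the log2 scale, with 18.4, 18.0, 17.5, 17.9 and 17.5 FPKM in HPC and 5.39, 5.68, 5.47, 5.52 and 5.27 FPKM in DMSO. Of 10 genes of NRF1, its processing and its relatives, 8 rose and 2 fell, with a median of 0.72. Among all tested genes, 42.9% rose and 44.8% fell. The related factor NFE2L2 (NRF2) rose by 1.29, the small MAF partners MAFF, MAFG and MAFK by 2.52, 1.43 and 0.60, and the repressor BACH1 by 0.83. Of the enzymes that release and cut NRF1, the glycanase NGLY1 rose by 0.54, the protease DDI2 by 0.12 (-0.04 with mitochondrial genes left out of the scaling), and the ATPase VCP fell by 0.17. NFE2L3, the relative of NRF1, fell by 1.37 on the log2 scale. The subunit genes stood beside this with a median of 0.25 for the ATPases, 0.20 for the lid and -0.09 for the core, or 0.08, 0.04 and -0.26 with mitochondrial genes left out of the scaling, where the median of the NRF1 list was 0.55. Protein levels and cleavage of NRF1 were not measured.

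**Figure D4:**
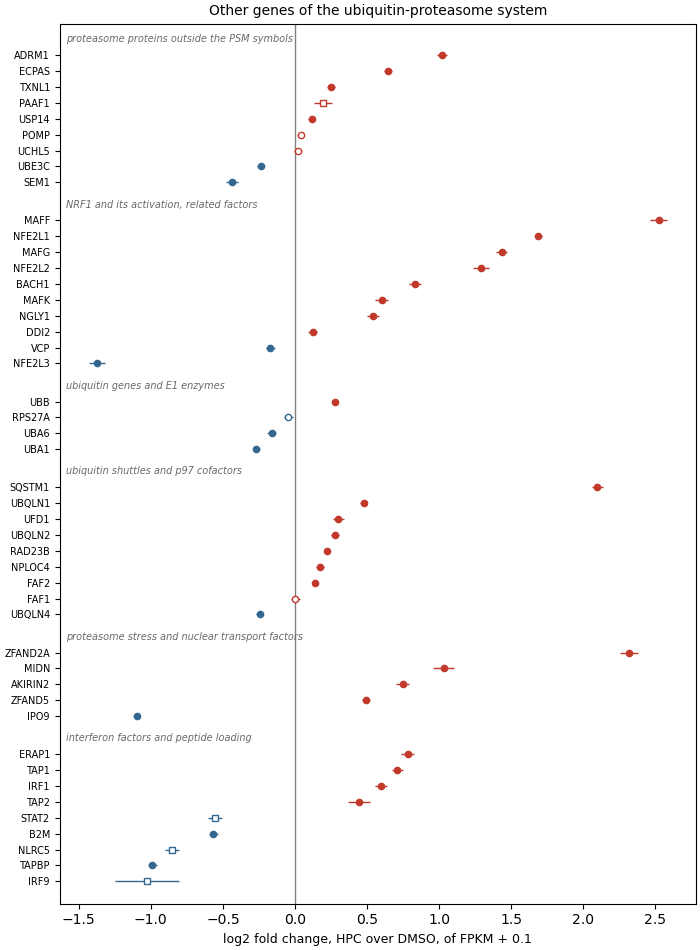
Log2 fold change of FPKM + 0.1, HPC over DMSO, with standard errors as bars, for the listed genes of the ubiquitin-proteasome and interferon groups (cell type markers not drawn), grouped by role (rows). Filled circles passed the test, open circles did not, and open squares mark genes below the filter, shown with their value in the fit with no filter. MAFF (2.52), ZFAND2A (2.32) and SQSTM1 (2.10) lie farthest to the right of the genes drawn and NFE2L3 (-1.37) farthest to the left.

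Of 4 ubiquitin and E1 genes, 1 rose, 2 fell and 1 did not pass. Counts in the reported fit, here and for the next 2 lists, stand beside 42.9% higher and 44.8% lower of all tested genes. The polyubiquitin gene UBB rose by 0.28 to 136 ± 2.47 FPKM in HPC, against 112 ± 1.94 in DMSO (SD, n = 5 each), but was at 0.04 and not called under quantile normalization. The ribosomal fusion gene RPS27A did not pass (-0.05) but was lower under quantile normalization (-0.24) and with mitochondrial genes left out of the scaling (-0.21), while the E1 enzyme UBA1 fell by 0.27 and the E1 enzyme UBA6 fell by 0.16 (log2). Of 9 shuttles and VCP cofactors, 7 rose, 1 fell and 1 did not pass. With mitochondrial genes left out of the scaling, 5 were higher and 2 lower, beside 32.3% and 54.8% of all tested genes. The autophagy receptor SQSTM1 rose by 2.10, UBQLN1 by 0.48, UFD1 by 0.30, UBQLN2 by 0.28, RAD23B by 0.22, NPLOC4 by 0.18 and FAF2 by 0.14, the last 2 at 0.0090 and -0.03 and not called under that scaling. UBQLN4 fell by 0.24, and FAF1 did not pass but was lower (-0.16) under that scaling. Of 5 genes that bind or transport proteasomes, 4 rose: the stress cofactors ZFAND2A (2.32) and ZFAND5 (0.49), MIDN (1.03), which carries untagged nuclear proteins to the proteasome, and AKIRIN2 (0.75), which brings proteasomes into the nucleus. IPO9, the import receptor that AKIRIN2 uses, fell by 1.10 on the log2 scale.

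Genes of interferon signalling and peptide loading moved in both directions, as did all tested genes, of which 42.9% rose and 44.8% fell. Of 6 tested, 4 rose: ERAP1 (0.78), TAP1 (0.71), the factor IRF1 (0.60), which drives PSMB9 and TAP1 in response to interferon, and TAP2 (0.44). The other 2 fell: B2M by 0.57 and TAPBP by 0.99 on the log2 scale. IRF9, NLRC5 and STAT2 were below the filter and were lower in the fit with no filter (-1.02, -0.86 and -0.55). Means in HPC and DMSO were 0.275 and 0.632 FPKM for IRF9, 0.0256 and 0.127 for NLRC5, and 0.339 and 0.544 for STAT2. The 0.1 FPKM added before the log is large beside the NLRC5 values, so -0.86 understates its change. STAT2 reads low in FPKM, with a recovered length of 71827 bases, against 3259 for its principal transcript. By principal-transcript level STAT2 was at 7.47 in HPC and 12.0 in DMSO. That fit gave 4 higher and 5 lower of the 9, with a median of -0.55, beside 31.2% higher and 36.2% lower of 16734 genes.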

How the data were processed

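RNA was measured by poly(A) RNA-seq in 10 libraries, grouped by their titles as HPC or DMSO. The authors deposited 1 table of FPKM values, and the build GRCh38.p13 with the tools STAR 2.7.7a, fastp 0.23.2 and edgeR are listed in the submitters' processing notes, with no roles. For the counter, its strand setting and the annotation, nothing is given in the sources used here. FPKM values were whole multiples of 1 read for 15208 of 15208 genes above 0 in at least 3 libraries, which gave library totals. The tolerance was 0.0001 of a read, and wider for any gene left to a second search over gene lengths. Read numbers cover counting error only.

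Genes at 1 FPKM or more in 5 or more libraries were tested on log2(FPKM + 0.1), a scale that understates changes of low genes, with limma 3.58.1 (trend and robust, two-sided) in R 4.3.3 and Benjamini-Hochberg adjustment at 0.05. On simulated data the procedure was checked before use. Ratios were tested by exact two-sided permutation over the libraries. Gene lengths, overlaps and principal (APPRIS) transcripts came from GENCODE 29, promoters from RefSeq (GRCh38.p14). Every gene matching the rule is named, with values by library for the gene with the largest and smallest change of each role, the catalytic, PSME, PSMF and PSMG genes. PSME3IP1 was set apart from the proteasome genes after the table was read. Genes outside the rule come from lists, some members of which are not reported here. The genes and lists were chosen with earlier results of these data known. TAP1's promoter and the plotted selection were chosen after values were seen. CD3E and CDKN2A were not analysed here. Alternatives varied pseudocount, filter, scaling, block, variance model, test and libraries, with voom on the recovered reads among them. Python 3.11.15, NumPy 2.4.6, pandas 2.3.3 and matplotlib 3.10.9 were used.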

Additional observations from a re-analysis of the deposited data

Results flagged for a closer look

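In 103 groups of 5 libraries, 4 had 1 library far from the others, and chance flags about 1 in 20 groups. PSMB6 stood at 27.79 FPKM in HPC library 4 and at 31.97 to 32.72 in the other HPC libraries, the only one of the 4 that touches an overlap reported above. PSMC2 stood at 17.26 FPKM in HPC library 5, beside 16.16 to 16.45 in the others, PSMD3 at 23.58 FPKM in HPC library 3, beside 21.75 to 22.22, and PSMC1 at 10.7 FPKM in DMSO library 3, beside 10.17 to 10.27.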

How the results depend on the processing

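Over all settings and leave-one-out fits, proteasome genes kept direction and side of the threshold in 926 of the comparisons with the reported value. They changed sign in 21, whether or not the call changed too. With the sign kept, they passed newly in 24 and no longer passed in 13. Scaling without mitochondrial genes gave 9 higher and 25 lower genes, beside 32.3% and 54.8% of all tested genes. In the same order there were 0 and 11 in the core, 6 and 7 among ATPase and lid genes, and 3 and 5 among activators and assembly. Signs turned there for PSMA1 (-0.053), PSMA5 (-0.067), PSMA7 (-0.12), PSMB4 (-0.053), PSMC2 (-0.11), PSMD13 (-0.064), PSMD9 (-0.068), PSME3 (-0.059) and PSMG4 (-0.11). Under quantile normalization PSMA7 was at -0.074, PSMD1 at 0.0024 and PSMD6 at 0.014, and under median ratio scaling PSMD1 at 0.014, PSMD2 at 0.0049, PSMD6 at 0.00067 and PSMG3 at 0.0016. Without 1 library, PSMD1 ranged from -0.013 to 0.0072, PSMD2 from -0.031 to 0.013 and PSMG3 from -0.048 to 0.023, and the counts from 20 to 21 higher and 14 to 15 lower. A filter of 5 FPKM left 1969 higher and 1836 lower of all genes (3922 and 4099 as reported) and 0 immunoproteasome genes, since fewer were tested, and no filter gave 3 lower immunoproteasome genes. The cause of the other shifts was not tested. With the replicate number as a block no call of a proteasome gene changed, and the ratios of PSMB8, PSMB9 and PSMB10 to their constitutive genes kept log2 differences of -0.75, -1.88 and -0.42 with an exact sign-flip p of 0.0625, the smallest that 5 pairs allow. Same-numbered libraries deviated together only weakly (correlations -0.0593 to 0.199, and libraries 3 and 5 matched their own number best), so the numbers were not taken to pair them. The number of reads limits PSMB8 and PSMB9, with 106 to 235 reads a library in HPC.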
